A study of Gallus gallus with 15 samples.

Results

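A set of 288 transcripts had lower mean levels in germinal disc pools of hens given corticosterone than in pools of hens given testosterone and than in pools of hens given oil alone. The set came from 24881 genes in the deposited count table. To be a member, a gene needed a mean of 10 CPM or more over all libraries, which 8769 genes had. It also needed a mean log2(CPM + 0.5) over the 5 corticosterone pools that was lower by 0.2 or more than the mean over the 5 testosterone pools and than the mean over the 5 control pools. CPM are read counts divided by the size of their library and brought to a common total, here after TMM scaling, a correction that centres most genes on the same level in each library. Because the differences from both other groups chose the members, those differences are given as a description. Counts from the test across all genes are given for them later, and nothing is read from the members among these.

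White Leghorn laying hens gave the tissue, the germinal disc region cut from the F1 follicle, which is the next to ovulate. Hens received 1.5 mg corticosterone in 0.5 ml peanut oil, 1.5 mg testosterone in 0.5 ml peanut oil, or 0.5 ml peanut oil as control. Injections came 5 h ahead of the expected ovulation and the discs were collected about 1.5 h after them, when 3.5 h remained to ovulation. Each group had 5 libraries and each library held RNA pooled over several hens, 8 according to the source names and design and 9 according to the extraction protocol. The p-values therefore measure the spread between pools and not between hens, and the age of the hens is not given in the sources used here. The study asked whether either hormone altered the expression of genes that control chromosome segregation.

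The germinal disc is the spot of cytoplasm on the yolk surface in which the nucleus and most organelles of the oocyte lie, and granulosa cells of the follicle wall lie over it. In the hours before ovulation the oocyte resumes meiosis, and because the hen is the heterogametic sex, this division decides which sex chromosome the egg keeps. Corticosterone, the main glucocorticoid of birds, binds the glucocorticoid receptor, a transcription factor that moves to the nucleus when it holds its ligand and can raise or lower the transcription of its targets. Testosterone acts through the androgen receptor, a related transcription factor, and is itself made in the follicle wall. In pieces of tissue such as these, fewer cells of a type and less RNA per cell cannot be told apart.

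The deposited identifiers are not paired with gene names, and 0 of 24881 matched the chicken reference table used here. No member is therefore assigned a function, marker lists of granulosa cells, oocytes or blood could not be read, and the labelled tissue was not checked against its markers. CPM are not divided by gene length, so a higher CPM in one gene than in another does not show more molecules. Testosterone replicate 5 had a total of 12913729 counts, and the other libraries had between 24550108 and 33795073. All 288 members passed the low-count filter of the test across genes, and the lowest count of any member in any library was 63.

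The rule picked 288 of 8769 genes, or 3.28%. Taken alone, the difference from control was -0.2 or lower for 493 genes (5.62%), and the difference from testosterone was -0.2 or lower for 422 genes (4.81%). These comparisons share the corticosterone libraries. The mirror image of the rule, a mean higher by 0.2 or more after corticosterone than in both others, was met by 27 genes. With testosterone as the group set apart, 39 genes were lower and 35 higher than in both others, and with control as that group 24 were lower and 41 higher. The set of lower transcripts after corticosterone was thus the largest of these 6 sets, which is a description of these libraries and was not tested. The imbalance between lower and higher genes depended on the limit on read level. Of 12626 genes with a mean of 1 CPM or more, 415 were lower after corticosterone than in both others and 192 were higher. Of 4263 genes with a mean of 50 CPM or more, 154 were lower and 3 were higher.

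**Figure D1:**
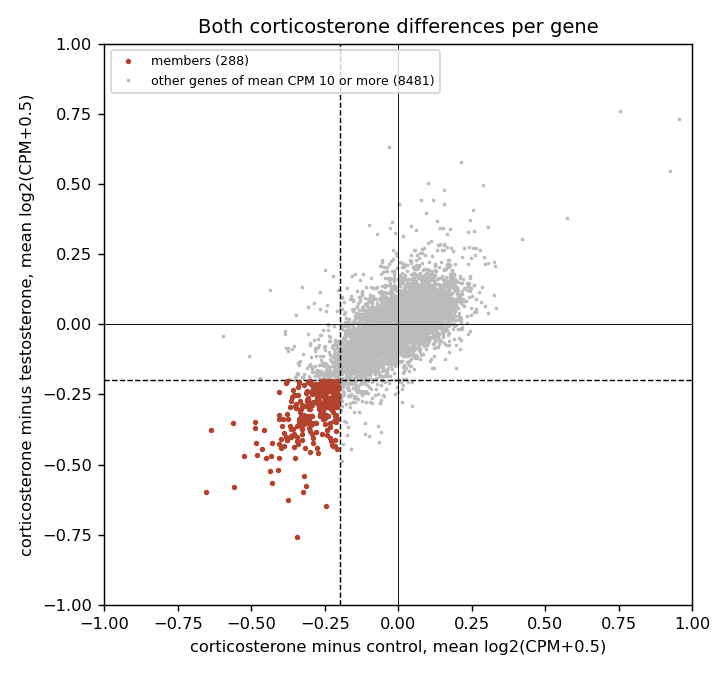
Each point is 1 of the 8769 genes with a mean of 10 CPM or more, with the corticosterone minus control difference on the x axis and the corticosterone minus testosterone difference on the y axis, both in mean log2(CPM + 0.5). Red points are the 288 members below -0.2 on both axes (dashed lines), grey points are the other 8481 genes, and 1 gene lies outside the axes.

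The differences were small. Over the members, the corticosterone minus control difference had a median of -0.27 log2 units, which is 17.2% lower, and ran from -0.66 to -0.20. The corticosterone minus testosterone difference had a median of -0.28 log2 units, or 17.9% lower, and ran from -0.76 to -0.20. Over all 8769 genes both medians were 0.005, held near 0 by the TMM scaling. The smaller of a member's differences, called its margin here, reached 0.3 in 74 members, 0.4 in 15 and 0.5 in 2. Many members stood close to the limit: the last inside it had a margin of 0.2009 and averaged 112.7 CPM after corticosterone, 129.5 CPM after testosterone and 134.0 CPM in controls. The next gene outside had 0.1993 and averaged 16.9 CPM after corticosterone, 19.4 CPM after testosterone and 21.9 CPM in controls.

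Members were found in every band of read level examined. Their mean CPM ran from 10.1 to 9648.5 with a median of 58.5, against a highest mean of 21542.2 and a median of 47.9 over all 8769 genes. Of genes from 10 to 30 CPM, 91 of 2905 (3.13%) were members, and of genes from 30 to 100 CPM 92 of 3692 (2.49%) were. The shares were 62 of 1701 (3.64%) from 100 to 300 CPM and 43 of 471 (9.13%) at 300 CPM or more. In that highest band the median over all genes, members or not, was -0.06 log2 units against control and -0.05 against testosterone, while it was 0.01 in both comparisons in the band from 30 to 100 CPM. The 10 members of highest CPM held 46.2% of the summed CPM of the set.

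ENSGALG00000029788 was the member with the largest margin. It had 34.2, 41.4, 31.0, 52.7 and 39.8 CPM in corticosterone replicates 1 to 5. Testosterone replicates 1 to 5 had 55.5, 62.1, 71.8, 47.2 and 64.1 CPM, and control replicates 1 to 5 had 114.6, 56.5, 38.6, 68.7 and 52.9 CPM. Corticosterone replicate 4 lay within the testosterone range, control replicate 1 was far above the other controls, and control replicate 3 lay among the corticosterone values. Means were 39.8 ± 8.33 CPM (SD, n = 5 in each group) in the corticosterone libraries, 60.2 ± 9.25 in the testosterone libraries and 66.3 ± 29.1 in the control libraries. The difference was -0.66 log2 units from control and -0.60 from testosterone. Without control replicate 1, the difference from control was -0.44. Of its 5 corticosterone values, 2 lay below all 10 other libraries.

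ENSGALG00000003578 had the highest CPM of the set. Its values in corticosterone replicates 1 to 5 were 7573.9, 7718.4, 9251.8, 7929.0 and 9591.7 CPM. They were 9689.2, 9519.0, 9684.6, 12932.5 and 9195.8 CPM in testosterone replicates 1 to 5, and 13011.9, 10509.3, 7463.0, 9497.9 and 11158.7 CPM in control replicates 1 to 5. Control replicate 3 was lower than every corticosterone value, control replicate 1 was the highest of all libraries, and all corticosterone values lay inside the control range. The means were 8413.0 ± 937.3 CPM (SD, n = 5 in each group) in the corticosterone libraries, 10204.2 ± 1538.3 in the testosterone libraries and 10328.2 ± 2050.8 in the control libraries. Corticosterone replicates 3 and 5 also lay inside the testosterone range. Its differences were -0.28 log2 units from control and -0.27 from testosterone. Without testosterone replicate 4 the difference from testosterone was -0.192, and without control replicate 1 the difference from control was -0.196. Either falls short of the limit of 0.2.

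ENSGALG00000003689 had the largest testosterone minus control difference of the members. It stood at 34.9, 43.0, 64.8, 39.2 and 61.2 CPM in corticosterone replicates 1 to 5. Values were narrow in testosterone replicates 1 to 5, at 82.3, 80.7, 78.5, 85.5 and 74.6 CPM, and wide in control replicates 1 to 5, at 83.1, 61.5, 44.9, 50.7 and 66.9 CPM. All corticosterone values lay below all testosterone values, while corticosterone replicates 3 and 5 lay within the control range. Means were 48.6 ± 13.5 CPM (SD, n = 5 in each group) in the corticosterone libraries, 80.3 ± 4.09 in the testosterone libraries and 61.4 ± 14.9 in the control libraries. The fitted difference between testosterone and control was 0.39 ± 0.18 log2 units (SE), which did not pass edgeR's test (adjusted p = 0.999).

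**Figure D2:**
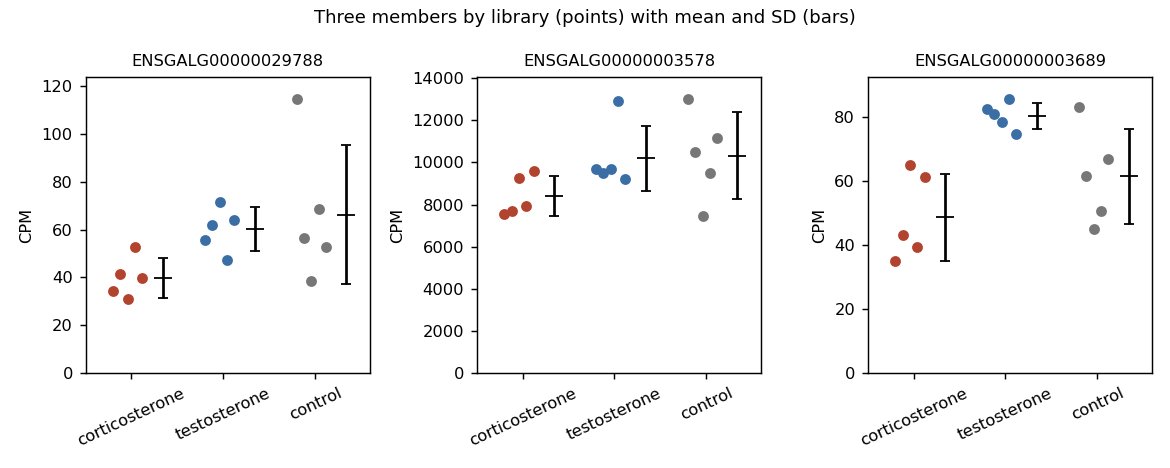
CPM of 3 members in each library (points, left to right replicates 1 to 5) with the mean and SD of each group (black bars, n = 5); the y axes start at 0. ENSGALG00000029788 and ENSGALG00000003578 overlap between corticosterone and control, and ENSGALG00000003689 is separate only from testosterone.

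Groups that do not overlap were rare among the members. For 8 of 288 all corticosterone values lay below all control values (2.78%; 0.468% of the 8769 genes). Against testosterone this held for 34 of 288 (11.8%; 0.821% of the 8769 genes), and against all 10 testosterone and control libraries for 5 of 288 (1.74%; 0.103% of the 8769 genes). The rule used these contrasts, so nothing is read from the shares.

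The 5 members separate from all other libraries had moderate differences, from -0.34 to -0.25 log2 units against control, and ranked between 66 and 194 by their margin. The one of highest CPM had 1327.7, 1145.2, 1414.7, 1364.9 and 1458.7 CPM in corticosterone replicates 1 to 5. It had between 1463.9 and 1728.5 CPM in the testosterone libraries and between 1523.1 and 1686.3 CPM in the controls. The gap was thus narrow, with 1458.7 CPM in the highest corticosterone library beside 1463.9 CPM in the lowest testosterone library. Another averaged 134.3 ± 11 CPM (SD, n = 5 in each group) in the corticosterone libraries, 163.6 ± 11.4 in the testosterone libraries and 162.2 ± 9.35 in the control libraries, with a highest corticosterone value of 146.6 CPM and a lowest value of 152.3 CPM in both other groups.

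The corticosterone pools were far from alike. For each library the median deviation of the 288 members from their own means over the 15 libraries was taken. It was -0.29, -0.43, -0.07, -0.23 and 0.07 log2 units in corticosterone replicates 1 to 5. In testosterone replicates 1 to 5 it was 0.05, 0.09, 0.13, 0.23 and 0.04, and in control replicates 1 to 5 it was 0.26, 0.11, -0.02, -0.02 and 0.13. Corticosterone replicates 1, 2 and 4 were the lowest of all libraries and replicate 3 was below every testosterone and control library by a small amount. Corticosterone replicate 5 lay inside the range of both other groups, above control replicates 3 and 4. Over all 8769 genes the same median stayed between -0.01 and 0.01 in every library. TMM scaling centres most genes, so this median is held near 0 by the scaling.

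**Figure D3:**
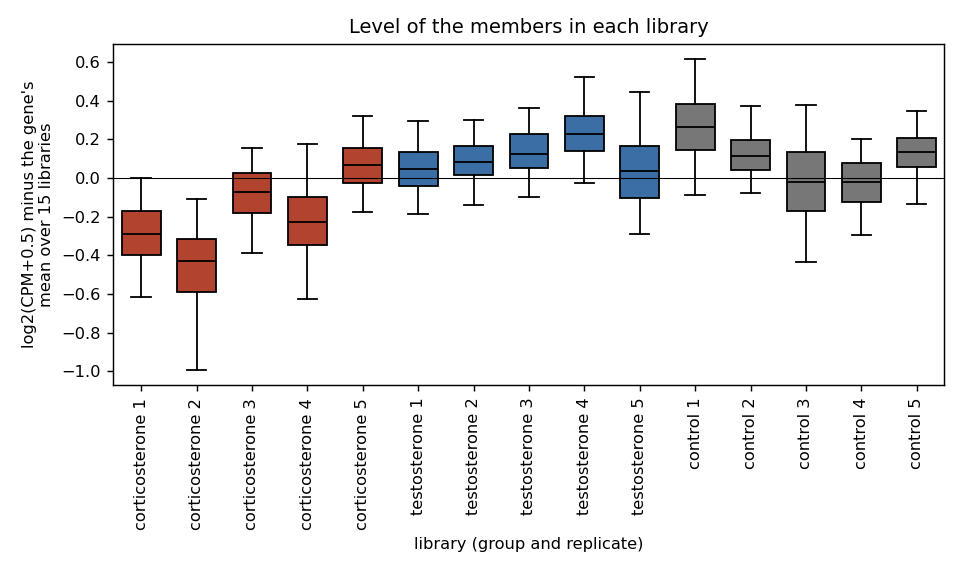
Boxes show, for each of the 15 libraries, the spread over the 288 members of log2(CPM + 0.5) minus the member's mean over all libraries (line, median; box, quartiles; whiskers, 5th to 95th percentile). Corticosterone replicates 1, 2 and 4 lie lowest, with medians of -0.29, -0.43 and -0.23, and corticosterone replicate 5 has a median of 0.07.

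The library of lowest value for a member was corticosterone replicate 2 in 168 of 288 members, replicate 4 in 45, replicate 1 in 44, replicate 3 in 15 and replicate 5 in 2. A testosterone library was lowest for 4 members and a control library for 10. At the other end, control replicate 1 was the highest library for 118 members and testosterone replicate 4 for 73. All 5 corticosterone values lay below the mean of the 10 other libraries in 143 members, 4 did in 119, 3 in 24 and 2 in 2. Corticosterone replicate 5 was below that mean for 173 members, against 286 for replicate 2. The rule chose the members for a low corticosterone mean, and no such counts over all 8769 genes are given here. These counts therefore only describe how the pools differed in the members.

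As a share of all counts, the members took 6.11 ± 0.68% after corticosterone, 7.21 ± 0.447% after testosterone and 7.21 ± 0.556% in controls (SD, n = 5 each). The rule chose the members for a low corticosterone mean in these libraries, so a lower share after corticosterone is built in. The share ran from 5.24% in corticosterone replicate 2 to 6.97% in corticosterone replicate 5. It was between 6.79% and 7.96% in testosterone libraries and between 6.55% and 8.03% in controls, so the corticosterone range overlapped both. The TMM factor, which scales each library, was 1.037, 1.069, 1, 1.026 and 0.971 in corticosterone replicates 1 to 5. It was 0.969 to 1.004 after testosterone and 0.963 to 1.014 in controls. Corticosterone replicates 1, 2 and 4, where the members were lowest, thus had the highest factors of all libraries. Control replicate 1, where the median of the members was highest, had the lowest factor, at 0.963. The members' levels thus ran against the scaling factor in these libraries, and the cause was not tested. With libraries scaled by total count alone, the rule picked 159 genes, all of them among the 288, and 69 genes met its mirror image.

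Membership depended on single pools. Without corticosterone replicate 2 the rule picked 184 genes, 161 of them among the 288, and without corticosterone replicate 5 it picked 481, 287 of them among the 288. Without corticosterone replicates 1 and 2 together, which earlier results of these data had set apart, it picked 172 genes, of which 102 were among the 288. The members then had a median of -0.18 log2 units against control and -0.19 against testosterone.

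To measure the differences in libraries left out of the means that chose the genes, the rule was applied to 12 libraries. The genes it chose were read in the other 3, replicate n of each group, for n from 1 to 5. The TMM factors came from all 15 libraries, so the libraries left out still had a part in the scaling. The rule itself, with its group and its direction, was set with earlier results of these data known. The libraries left out are therefore not independent of the choice, and the values below are a description. The number n only names the libraries left out. Each difference sets a single corticosterone library against the control and testosterone library of the same number, so its size and sign also depend on that numbering. With replicate 1 left out, 214 genes were chosen, and in the libraries left out their median difference was -0.37 log2 units from control and -0.22 from testosterone. With replicate 2 left out, 154 genes were chosen, and the median was -0.44 from control and -0.40 from testosterone. The 380 genes chosen without replicate 3 gave medians of 0.01 from control and -0.12 from testosterone. The 269 chosen without replicate 4 gave -0.08 from control and -0.29 from testosterone, and the 503 chosen without replicate 5 gave -0.02 from control and 0.12 from testosterone. Leaving out the libraries in this way gave a mean of -0.18 ± 0.21 log2 units against control and -0.18 ± 0.20 against testosterone (SD over the 5 sets of libraries). The value was below 0 in 4 of 5 sets for each comparison, but below 0 in both comparisons only with replicate 1, 2 or 4 left out. The 5 choices share libraries, so no test was made, and the mean was smaller than the spread between the sets.

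Counted gene by gene, 169 of 214 chosen genes (79.0%) were lower in corticosterone replicate 1 than in both other libraries left out, against a background of 31.5% over all genes with a mean of 10 CPM or more. For replicate 2 the count was 135 of 154 (87.7%; background 39.6%), and for replicate 4 it was 164 of 269 (61.0%; background 36.2%). It was 157 of 380 for replicate 3 (41.3%; background 28.3%). For replicate 5 it was 107 of 503 (21.3%; background 25.3%), below the share over all genes. Chosen genes higher in the left-out corticosterone library than in both others numbered 18 (8.41%; background 30.1%) for replicate 1 and 6 (3.90%; background 39.4%) for replicate 2. They numbered 53 (13.9%; background 34.7%) for replicate 3, 54 (20.1%; background 41.4%) for replicate 4 and 188 (37.4%; background 28.6%) for replicate 5. Genes of 1 library share its RNA and are not replicates, so each of these counts amounts to 1 observation per set of libraries.

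**Figure D4:**
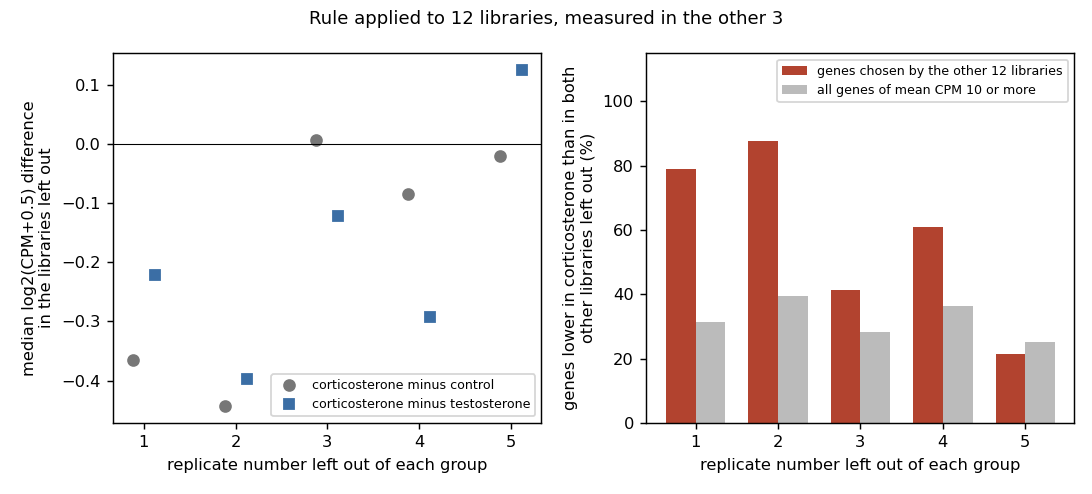
Left, median log2(CPM + 0.5) difference in the 3 libraries left out, for genes chosen by the rule in the other 12 libraries (circles, corticosterone minus control; squares, corticosterone minus testosterone). Right, the percentage of these genes (red) and of all genes with a mean of 10 CPM or more (grey) that were lower in the left-out corticosterone library than in both others; the red bar is 87.7% for replicate 2 and 21.3% for replicate 5.

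The members also varied more between pools of the same treatment. The median SD of a member's log2(CPM + 0.5) was 0.25 after corticosterone, 0.16 after testosterone and 0.19 in controls, while over all 8769 genes it was 0.11 after corticosterone, 0.10 after testosterone and 0.09 in controls. A rule on means favours genes that vary more, so nothing is read from this spread. After each group's mean was subtracted, pairs of members had a median Pearson's r of 0.46 over the 15 libraries, and 86.3% of the 41328 pairs had an r above 0. Among pairs of the other 8481 genes the median was -0.003, with 49.7% above 0.

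Within single groups the median r between members was 0.63 over the corticosterone pools, 0.27 over the testosterone pools and 0.43 over the control pools, and it was 0.002 or less among the other genes. One component held 46.2% of the members' variance within groups, and 24.7% of that of all 8769 genes. Each member was also set against the mean of the remaining 287. The r was 0.5 or more in 218 members, between 0 and 0.5 in 65 and below 0 in 5, with a median of 0.70. These correlations are descriptions over libraries that share depth and scaling. The members were chosen for a low corticosterone mean, which corticosterone replicates 1, 2 and 4 lowered most, so correlation among them over the same libraries is in part set by the rule. The other genes were not chosen in this way, and nothing is read from the comparison with them.

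**Figure D5:**
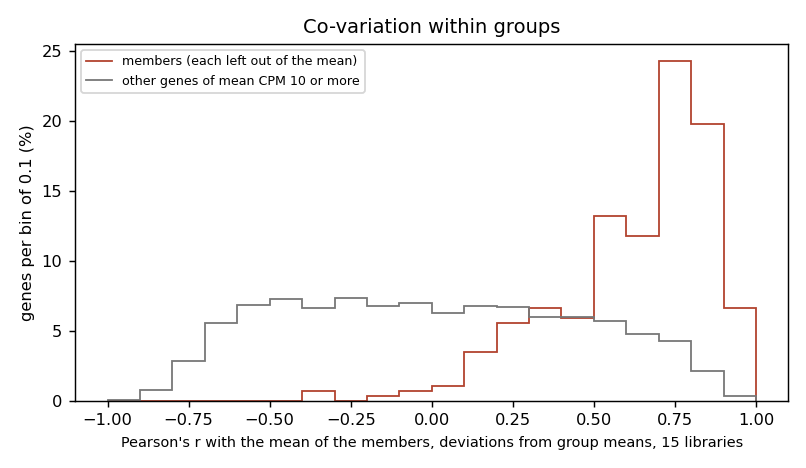
Percentage of genes per bin of 0.1 in Pearson's r between a gene and the mean of the members, from deviations from group means in 15 libraries. Members (red, each set against the remaining 287) gather at high r, with 218 of 288 at 0.5 or more, and the other 8481 genes (grey) spread over both signs; the rule used the same libraries, so part of this gathering is built in.

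The member that followed the rest most closely, at an r of 0.98, had the next highest CPM after ENSGALG00000003578. Its values were 4268.7, 3420.2, 5222.6, 4113.6 and 5831.3 CPM in corticosterone replicates 1 to 5. They ran between 4796.2 and 6022.0 CPM in the testosterone libraries and between 4796.3 and 6285.1 CPM in the controls. Corticosterone replicates 1, 2 and 4 were below all other libraries, and replicates 3 and 5 were among them. The member that followed the rest least, at an r of -0.33, had 14, 13.3, 8.96, 11 and 11.5 CPM in corticosterone replicates 1 to 5. It averaged 11.8 ± 2.01 CPM (SD, n = 5 in each group) in the corticosterone libraries, 14.4 ± 1.91 in the testosterone libraries and 14 ± 1.16 in the control libraries. Its lowest pool was corticosterone replicate 3, where most members were nearer to their usual level. ENSGALG00000029788, the member with the largest margin, also followed the rest only weakly, at an r of 0.17.

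A small part of the genes outside the set followed it closely within groups, while most spread over both signs of r. Among the other 8481 genes, 211 had an r of 0.8 or more with the mean of the members within groups, and 68 had an r of -0.8 or lower. Of the 211, 199 had a lower mean after corticosterone than in both other groups (94.3%, against 35.6% of all 8769 genes). Their median differences of -0.13 log2 units from control and -0.09 from testosterone were too small for membership. Of the 68, 56 had a higher mean after corticosterone than in both others (82.4%, against 39.8% of all 8769 genes), with median differences of 0.08 from control and 0.06 from testosterone. These genes were picked for their likeness to the members, so their direction was not tested.

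Testosterone against control is the contrast on which the rule set no limit, although requiring a gene to be higher in both groups is not independent of it. Of the members, 157 had a higher mean after testosterone than in controls (54.5%, against 49.8% of all 8769 genes) and 131 a lower one. The median difference was 0.01 log2 units, from -0.26 to 0.42. It was within 0.1 for 236 members (81.9%), near the 82.8% of all 8769 genes, so nothing particular to the members is read from it. With edgeR's quasi-likelihood test over 14260 genes, 0 members and 0 genes in all (0%) had an adjusted p under 0.05, the lowest among members being 0.999. DESeq2 and limma voom also called 0 members. At an unadjusted p under 0.05 there were 3 members (1.04%, against 3.40% of all genes tested), all higher after testosterone, a direction in which 1.86% of all genes tested passed this limit. With DESeq2 the number was 3 (3.21% of all genes tested passed) and with limma voom 4 (3.31% of all genes tested). For 264 members (91.7%) the whole 95% interval of this fold change was smaller than 1.5-fold in either direction, against 98.3% of all 8769 genes. Members varied more between pools, which the rule favours and which widens such intervals, so nothing is read from the lower share.

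For the contrasts that chose the members, the test across all genes is given only to show where they stood. With edgeR, 0 of 14260 genes (0%) passed in either comparison. Members at an unadjusted p under 0.05 numbered 180 for corticosterone against control and 180 for corticosterone against testosterone, all lower, where 5.70% and 4.31% of all genes tested were at that limit and lower. DESeq2 called 7 members of 193 that it gave an adjusted p for corticosterone against control (0.246% of all genes with one) and 29 of 288 for corticosterone against testosterone (0.465%). Limma voom called 0 in both (0%). The rule chose the members on these same contrasts, so nothing is read from the numbers of members.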

How the data were processed

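The table deposited by the authors holds raw counts of reads for 24881 Ensembl chicken identifiers in 15 columns, each matched to a sample by its label. The submitters' processing notes list the tools TopHat2 2.0.14 and HTSeq 0.6.1p1. The kit was strand-specific, per the labels' protocols, while build, annotation and strand setting were not given in the sources used here, so reads of overlapping or near-identical genes may be misassigned.

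TMM factors for CPM came from the 14063 genes with a summed count of 150 or more. Genes passing edgeR's filterByExpr (14260) were fitted with edgeR 4.0.16 in R 4.3.3 (robust quasi-likelihood, 1 mean per group, 12 residual degrees of freedom) and adjusted by Benjamini-Hochberg, with 0.05 as threshold. Standard errors were derived from the F statistic. DESeq2 1.42.0 and limma 3.58.1 voom were alternatives. The scripts were tested on simulated data. The count of 0 identifiers matched to names kept fixed gene and marker lists from being used, so 3 members are named by rule: the largest margin (the smaller of the differences from control and testosterone), the highest mean CPM and the largest testosterone minus control difference. Other members were chosen for description after their values were seen. The members and lists were chosen with earlier results of these data known. Over 105 library pairs the chi-square per degree of freedom was 4.76 to 40.9, above sampling noise, so no library was taken as a duplicate. Alternatives in scaling, pseudocount, filters, thresholds, the replicate block and left-out libraries were run.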

Additional observations from a re-analysis of the deposited data

Results flagged for a closer look

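Of 21 groups of 5 values examined for a value far from the other 4, 2 had one, where chance gives about 1 in 20 groups. Testosterone replicate 5 had a total count of 12913729, against 25979882 in the next lowest testosterone library; without it the rule picked 363 genes, 272 of them among the 288. ENSGALG00000003578 stood at 12932.5 CPM in testosterone replicate 4, against 9689.2 CPM in the next highest testosterone library. Testosterone replicate 4 was also the library with the highest value for 73 members.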

How the results depend on the processing

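The number of members, 288, was 159 with libraries scaled by total count alone, 154 at a mean of 50 CPM or more, 74 at a difference of 0.3 or more and 172 without corticosterone replicates 1 and 2. Leaving out 1 library gave 184 (without corticosterone replicate 2) to 481 (without corticosterone replicate 5). In the other 19 alternatives the number stayed within 1.5 times, but the genes were not always the same. With medians of pools in place of means, 321 genes were picked, 201 of them among the 288. Without corticosterone replicate 1 there were 273, and without replicate 4 there were 306, with 228 of the 288 in each. With a pseudocount of 2 there were 254, all among the 288. The median difference of the 288 members kept its sign in all 25 alternatives, between -0.343 and -0.185 against control and between -0.351 and -0.189 against testosterone. Settings that change only the limit on mean CPM or on the difference cannot move this median. The members were chosen for this sign, so nothing is read from its being kept. The held-out means kept their sign in 4 of 4 alternatives, and with total-count scaling they were -0.14 against control and -0.16 against testosterone.

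The rule used both corticosterone contrasts, so nothing is read from how many of the called genes were members. For corticosterone against control, DESeq2 called 14 genes (0.246% of those with an adjusted p), 7 of them members. For corticosterone against testosterone it called 56 genes (0.465%), 29 of them members. In that contrast, edgeR with no low-count filter gave 1 of 21002 genes, a member. Leaving out 1 library gave 0 to 5 genes (at most 5 of 14384 tested), of which 0 to 3 were members. A fit with replicate numbers as block passed 4 of 14260 genes, 3 of them members. The numbers do not pair the pools by any label, and 5 of 15 same-number pairs had deviations correlated above 0.1 (range -0.343 to 0.395). For testosterone against control, 0 genes passed in any of the 23 alternatives. In edgeR's test of this contrast, members at an unadjusted p under 0.05 numbered 1 to 9 when 1 library was left out. The 1 came without control replicate 4, where 4.92% of all genes tested passed. The 9 came without control replicate 1, where 2.58% of all genes tested passed, and all 9 were higher after testosterone. There were 5 without corticosterone replicates 1 and 2 (4.02% of all genes tested). The testosterone minus control log2 fold change for ENSGALG00000003578, -0.02, ran from -0.11 to 0.078 when 1 library was left out and was positive in 6 of these fits. For ENSGALG00000029788 it was -0.14 and ran from -0.274 to 0.149, the last without control replicate 1. The cause was not tested.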
